A study of Homo sapiens with 3 samples.

Results

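Aquaporins are membrane channels for water. The 5 described here are AQP1, AQP3, AQP5, AQP10 and AQP11, out of the 33538 genes counted in each library. They were picked by gene symbol, with earlier results of these data known. Caco-2 and HT29, both established from human colorectal cancer, were seeded 9 to 1 in the apical chamber of Transwell inserts, harvested on day 23 and profiled cell by cell with a 10x 3′ kit, where each captured RNA molecule carries a unique molecular identifier (UMI). There were 3 libraries, namely 2 untreated controls and 1 culture given 1 ng/ml of E. coli lipopolysaccharide (LPS, a bacterial cell wall component) from day 22 for 24 h. All 3 cultures held both lines on a Transwell insert, and the LPS culture has no replicate.

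Water crosses the gut lining partly through aquaporins, which sit in the membrane as tetramers. AQP1 and AQP5 pass water. AQP3 and AQP10 also pass glycerol and are called aquaglyceroporins, with AQP3 known from the basolateral side of epithelia and AQP10 from the brush border of the human small intestine. AQP11 is a distant member of the family known from the endoplasmic reticulum. Enterocytes absorb salt, nutrients and water, goblet cells secrete mucus, and stem and transit amplifying (TA) cells renew the lining.

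The genes lie on 5 chromosomes of GRCh38, by GENCODE v44: AQP10 on chr1:154321090-154325325, AQP1 on chr7:30911853-30925517, AQP11 on chr11:77589391-77610356 and AQP5 on chr12:49961872-49965682, all on the plus strand, and AQP3 on chr9:33441156-33447596 on the minus strand. The antisense gene AQP5-AS1 overlaps the start of AQP5 on the other strand, and reads of the pair cannot be told apart where strand was not used in counting, which is not given in the sources used here. The 250 bases before the start of AQP10 and AQP3, which were highest in enterocyte-like and in goblet-like cells, and of AQP1 and AQP5, which were highest in HT29-like cells, are shown from RefSeq (GRCh38.p14), 5′ to 3′, so that genes of these groups of cells can be compared. Capitals mark matches on either strand to the 6 motifs spelled out after the sequences, and overlapping matches run together.
AQP10, chr1:154320843-154321092, plus strand: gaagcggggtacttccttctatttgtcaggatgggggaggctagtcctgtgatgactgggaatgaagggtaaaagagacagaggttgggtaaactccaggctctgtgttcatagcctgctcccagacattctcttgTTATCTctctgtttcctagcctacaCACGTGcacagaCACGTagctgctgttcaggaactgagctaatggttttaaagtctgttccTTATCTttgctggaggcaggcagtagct
AQP3, chr9:33447594-33447843, minus strand: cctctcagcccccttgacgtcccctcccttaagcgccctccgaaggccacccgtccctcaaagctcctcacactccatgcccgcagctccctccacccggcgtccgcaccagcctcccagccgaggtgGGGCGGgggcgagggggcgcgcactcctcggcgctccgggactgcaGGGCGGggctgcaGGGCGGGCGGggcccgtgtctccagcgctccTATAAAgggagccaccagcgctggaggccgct
AQP1, chr7:30911603-30911852, plus strand: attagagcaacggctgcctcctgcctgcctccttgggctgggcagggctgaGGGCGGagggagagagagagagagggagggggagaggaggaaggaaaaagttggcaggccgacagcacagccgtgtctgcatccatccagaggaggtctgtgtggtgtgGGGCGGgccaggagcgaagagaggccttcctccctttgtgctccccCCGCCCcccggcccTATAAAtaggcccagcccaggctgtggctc
AQP5, chr12:49961622-49961871, plus strand: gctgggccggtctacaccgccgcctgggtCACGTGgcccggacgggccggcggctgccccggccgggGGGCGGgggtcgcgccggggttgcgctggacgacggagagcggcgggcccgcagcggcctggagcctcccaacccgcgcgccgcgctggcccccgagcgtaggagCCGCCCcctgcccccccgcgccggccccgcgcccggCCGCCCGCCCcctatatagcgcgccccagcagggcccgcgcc

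The motifs were searched in these windows and in all 27305 RefSeq windows of the same length. TATAAA, the TATA box, was held by 11.1% of all windows and stood 30 bases before the start of AQP1 and 32 bases before that of AQP3. GGGCGG, the GC box bound by SP factors, was held by 42.3% and matched 3 times in AQP1, 4 times in AQP3 and 4 times in AQP5. ACGTG, the core of the hypoxia response element, was held by 18.7%, and matched AQP5 on both strands of an overlapping pair 220 bases before its start. The same letters matched AQP10 on both strands 88 bases before its start and on the reverse strand at 77 bases. AGATAA, a motif of zinc finger factors active in the gut, was held by 9.37% and matched AQP10 on the reverse strand at 114 and 28 bases. TTTATG, a caudal type homeobox motif, was held by 10.0% of all windows and matched none of the 4. CAAAGT, part of motifs of nuclear receptors, was held by 10.4% and matched none of the 4. The windows of AQP1, AQP3, AQP5 and AQP10 had 65.2%, 73.6%, 84.4% and 48.8% G and C. A match of letters is a description of the window and not a site of binding.

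After the filters 4633 cells remained of control 1, 4989 of control 2 and 4850 of the LPS library, with a median of 5459, 4103 and 3574 UMIs a cell. Cells were clustered without the aquaporins, and clusters were given a line and a class by marker genes. Caco-2-like clusters held 11306 cells, HT29-like clusters 2592, and clusters of no line 574. The named classes were enterocyte-like (2091 cells), stem-like (804), TA-like (742), goblet-like (292, HT29-like), enteroendocrine-like (191) and fetal or placental-like (73). SST and GCG, hormones of enteroendocrine cells, were among the 10 genes most raised in the goblet-like cluster beside FCGBP, MUC2, MUC5AC and HES6, so this cluster is named by its mucin genes and carries hormone genes as well. Libraries shared between 9 and 11 cell barcodes pairwise and no identical column of counts. Levels are given as counts per 1000000 UMIs (CPM), from the UMIs summed over cells of a group in a library, and the libraries are the replicates. Marker genes of cells known for AQP1 were low over all kept cells of a library. The 4 endothelial genes summed to 2.00 to 2.38 CPM (1 or 2 of the 4 at 0 UMIs). The 4 erythroid genes summed to 2.27 to 2.75 CPM (1 of the 4 at 0). On the same scale AQP5 was at 2.13 to 4.50 CPM, and these marker sums were not made per cluster. The 4 immune genes summed to 6.64 to 7.69 CPM, the 4 fibroblast genes to 8.77 to 11.3, the 3 tuft cell genes to 2.44 to 3.92 and the 3 genes of BEST4 cells to 1.23 to 2.40.

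Over all kept cells the members were sparse. A UMI of AQP10 was found in 13.2% of cells, of AQP3 in 11.7%, of AQP11 in 11.4%, of AQP1 in 4.51% and of AQP5 in 1.22%. Most of these cells held 1 UMI, from 66.0% of the AQP1 cells to 86.9% of the AQP11 cells, and the most in a cell was 14 UMIs of AQP1. Of the rest of the family AQP7 had the most UMIs. AQP7, an aquaglyceroporin of fat cells whose near-identical copies in the genome make its counts uncertain, had 146, 110 and 105 UMIs over all barcodes of control 1, control 2 and LPS, against 154, 59 and 59 of AQP5, so it was above AQP5 in control 2 and LPS. AQP8, the water channel of the colonocyte's apical side, had 25, 7 and 4. AQP9 had 0 UMIs in each of the 3 libraries, which allows an underlying mean of up to 3 counts in each. MIP, AQP2, AQP4, AQP6, AQP12A and AQP12B had at most 9 UMIs in any library.

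The HT29-like and Caco-2-like cells were compared within the co-culture to find the line in which each member was higher. AQP1 and AQP5 were higher in HT29-like cells, AQP10 and AQP11 in Caco-2-like cells, and AQP3 differed least. In HT29-like cells AQP1 was at 79.3 CPM in control 1, 90.2 in control 2 and 76.1 with LPS, and in Caco-2-like cells at 0.495, 0.926 and 0.930 CPM. All 3 HT29-like values lie far above all 3 Caco-2-like ones. The fitted difference was 6.68 ± 0.19 (SE) on the log2 scale, 103-fold (edgeR, adjusted p = 2.61e-13). AQP5 was at 28.8, 10.5 and 11.97 CPM in HT29-like cells and at 0.289, 0.218 and 0.186 CPM in Caco-2-like cells. The groups do not overlap, although control 1 stood well above the other libraries in HT29-like cells, and the difference was 6.06 ± 0.45 (SE, adjusted p = 9.91e-09, edgeR). The Caco-2-like AQP5 values rest on 7, 4 and 3 UMIs in control 1, control 2 and LPS, so the size of this difference is uncertain.

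AQP10 was at 49.5, 33.9 and 41.6 CPM in Caco-2-like cells of control 1, control 2 and LPS, and at 5.06, 2.79 and 3.99 CPM in HT29-like cells. The difference, HT29-like minus Caco-2-like, was -3.46 ± 0.23 (SE, edgeR adjusted p = 2.52e-09), with no overlap. AQP11 was at 34.8, 28.3 and 24.0 CPM in Caco-2-like cells and at 3.68, 7.67 and 7.45 CPM in HT29-like cells, a difference of -2.29 ± 0.23 (SE, edgeR adjusted p = 3.39e-07). AQP3 was at 36.1, 20.6 and 22.3 CPM in Caco-2-like cells against 45.8, 48.8 and 30.6 CPM in HT29-like cells, so the values overlap between the lines, and its difference was 0.60 ± 0.22 (SE, edgeR adjusted p = 0.0236). All 5 members passed, but 69.7% of the 13987 genes tested also passed, so a pass by itself says little about the members. The AQP3 call was lost without the goblet-like cells (0.08 ± 0.23, adjusted p = 0.766, edgeR, an alternative chosen after seeing the data), without control replicate 2 (0.32, adjusted p = 0.324), with no doublets removed (0.02, adjusted p = 0.934) and with the line set per cell (0.50, adjusted p = 0.08), while AQP1, AQP5, AQP10 and AQP11 kept their calls in these 4 fits. With no doublets removed the goblet-like cluster was given to no line, so its cells were outside the HT29-like sums there too. The sizes moved more, with AQP1 at 5.45 and AQP10 at -4.71 with the line set per cell, AQP10 at -2.55 with no doublets removed, and AQP5 at 6.69 with log normalization.

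**Figure D1:**
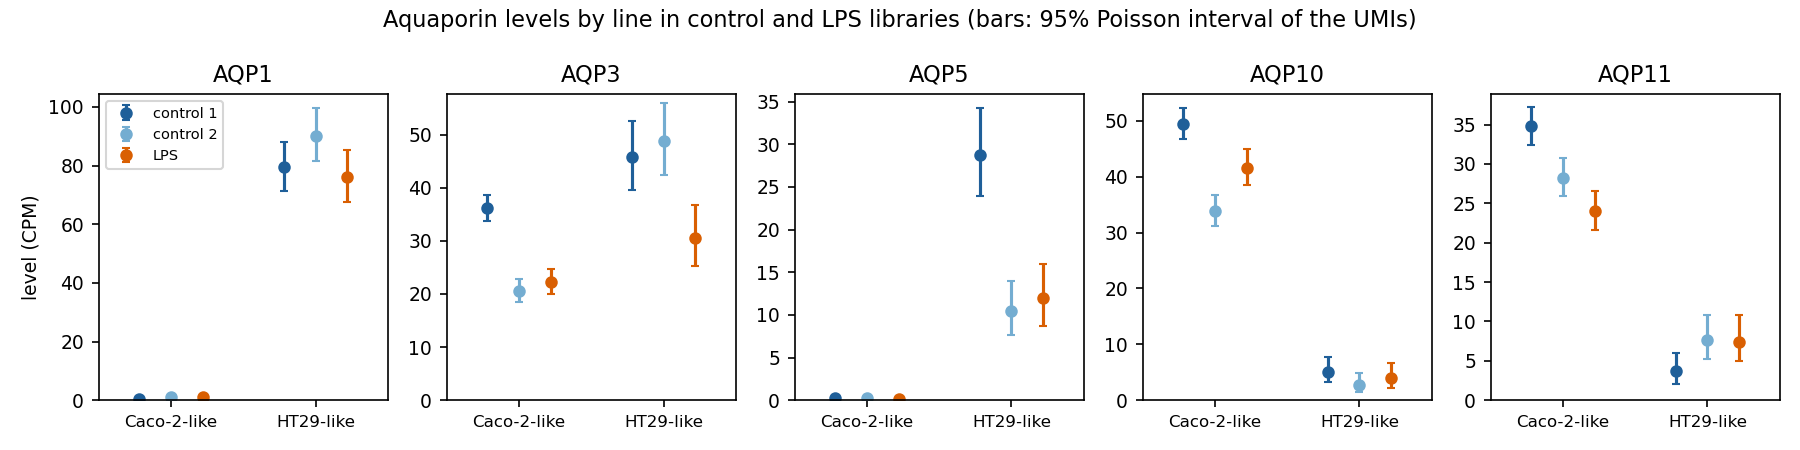
Level in CPM of each aquaporin (vertical axes, each from 0) in Caco-2-like and HT29-like cells of control 1, control 2 and the LPS library. Points are libraries and bars are 95% Poisson intervals of the UMIs, which cover counting error only. AQP1 sat between 76.1 and 90.2 CPM in HT29-like cells and under 1 CPM in Caco-2-like cells, and AQP3 overlapped between the lines.

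Low values on the wrong line need care, because free RNA in the droplets gives UMIs to cells that do not make a gene. Lines were also given to whole clusters. Of the cells in HT29-like clusters, 2104 were HT29-like when the line was set per cell, 391 lay between the lines and 97 were Caco-2-like. In HT29-like cells AQP10 was at 3.85, 3.40 and 2.98 UMIs per 1000 UMIs of the Caco-2 marker genes in control 1, control 2 and LPS, and in Caco-2-like cells at 3.57, 2.93 and 3.93. The ranges of these ratios overlap, so AQP10 in HT29-like cells was not found above the level at which the Caco-2 markers were found there. The parts of free RNA and of cells between the lines or of the other line in it were not tested. AQP11 in HT29-like cells was at 2.80, 9.35 and 5.56 such UMIs against 2.51, 2.44 and 2.27 in Caco-2-like cells. Its ratio was thus higher in HT29-like cells of control 2 and LPS and close to that of Caco-2-like cells in control 1. For AQP3 the ratio was 34.8, 59.5 and 22.8 in HT29-like cells against 2.61, 1.78 and 2.10 in Caco-2-like cells. AQP1 in Caco-2-like cells was at 1.03, 2.51 and 2.84 UMIs per 1000 UMIs of the HT29 marker genes, against 21.6, 25.2 and 21.7 in HT29-like cells. For AQP5 the same ratio was 0.60, 0.59 and 0.57 in Caco-2-like cells against 7.81, 2.92 and 3.41 in HT29-like cells. The HT29 markers themselves were at 481, 368 and 327 CPM in Caco-2-like cells, against 3680, 3577 and 3514 in HT29-like cells. How much of the former was free RNA was not tested, so the low ratios of AQP1 and AQP5 give no level of free RNA. The Caco-2-like share of cells with an AQP1 UMI was 0.290%, 0.356% and 0.311%.

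Within the Caco-2-like cells the enterocyte-like class was compared with stem-like and TA-like cells. All were harvested on day 23, so classes were compared and maturation over time was not followed. AQP10 was the member with the largest difference, and AQP3 and AQP11 were higher in enterocyte-like cells as well. In enterocyte-like cells AQP10 was at 131.2, 107.9 and 126.0 CPM in control 1, control 2 and LPS, in TA-like cells at 50.7, 17.9 and 30.9, and in stem-like cells at 5.63, 0 and 7.78 CPM. The enterocyte-like values all exceed the others, and the difference from the mean of stem-like and TA-like cells was 3.52 ± 0.22 (SE, edgeR adjusted p = 4.37e-15). It was 4.42 at a clustering resolution of 0.8 and 4.15 with no doublets removed. A share of 40.7% ± 7.5 (SD, n = 3 libraries) of enterocyte-like cells had an AQP10 UMI.

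AQP3 was at 80.2, 46.9 and 48.0 CPM in enterocyte-like cells, at 21.5, 12.7 and 10.8 in TA-like cells and at 19.2, 13.7 and 21.1 in stem-like cells, a difference of 2.08 ± 0.22 (SE, edgeR adjusted p = 1.23e-09) that was 2.81 with no doublets removed. AQP11 was at 65.4, 57.7 and 46.9 CPM in enterocyte-like cells, at 19.97, 14.2 and 17.8 in TA-like cells and at 27.6, 29.2 and 31.1 in stem-like cells, a difference of 1.59 ± 0.17 (SE, edgeR adjusted p = 9.92e-10). For both genes every enterocyte-like value exceeded every stem-like and TA-like value. For AQP11 every stem-like value also exceeded every TA-like value. The study lists AQP3, AQP10 and AQP11 among genes of its enterocyte-like cells, made from these controls, so this direction is not independent evidence. In the same passage, which deals with enterocyte-like cells, it names AQP1, AQP7 and AQP8 among transporters that the co-culture lacked. Here, with the LPS library included, AQP1 had a UMI in 0.53% ± 0.25 (SD, n = 3 libraries) of enterocyte-like cells. In HT29-like cells, a different set of cells from those of that passage, the share was 22.7% ± 4.0 (SD, n = 3 libraries). AQP1 had 4, 9 and 3 UMIs in enterocyte-like cells and did not pass (1.33, 95% interval -0.15 to 2.81, although it passed in 3 of the alternatives). AQP5 had 1 UMI in all there and 0 in all stem-like cells. Its fitted difference (0.33, 95% interval -1.195 to 1.863) did not pass, and its size and sign are uncertain. The 3 members that were higher are set against 46.8% of the 11184 genes tested that passed and 26.1% that passed as higher.

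The 4 enterocyte-like clusters were alike in direction but not in level. Mean AQP10 was 168.8 ± 12.7 CPM (SD, n = 3 libraries) in the cluster led by LOX, SLC2A5 and SUSD2, 145.7 ± 6.4 in that led by GSTA1, 116.4 ± 11.4 in that led by APOA4 and GNRH2, and 97.2 ± 13.3 in that led by APOA4 and S100G. Among Caco-2-like clusters outside this class, AQP10 was at 68.4 ± 9.6 CPM in the cluster led by ITGA5 and SLC2A3, at 61.3 ± 6.9 in that led by GNRH2 and BIRC7, at 47.0 ± 6.7 in that led by S100A9, and at 4.37 ± 0.20 in that led by ANKRD1 and DKK1. AQP11 was flatter over the Caco-2-like clusters, with means from 17.3 to 68.9 CPM, and its second highest mean was 65.2 ± 10.2 CPM in a cluster of 87 cells led by STC1 and APOD, from 4, 11 and 11 UMIs in control 1, control 2 and LPS. AQP3 lay between 8.70 and 61.8 CPM in the same clusters.

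**Figure D2:**
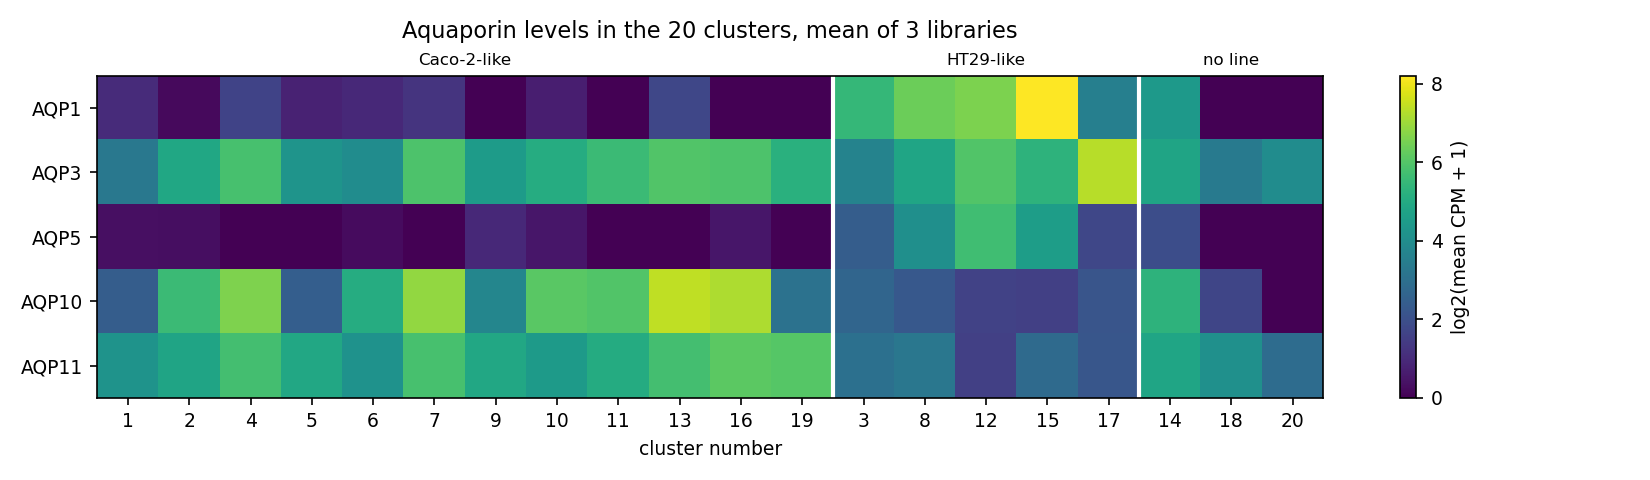
Level of the 5 aquaporins as log2(mean CPM + 1) in colour, from the mean of the 3 libraries, in the 20 clusters, which are grouped by line along the horizontal axis. AQP10 is highest in cluster 13 (168.8 CPM), AQP1 in cluster 15 (294 CPM), AQP3 in cluster 17 (158.2 CPM) and AQP5 in cluster 12 (50.1 CPM).

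The goblet-like cells were compared with the other HT29-like cells. AQP3 was the member that was high in them and AQP1 and AQP5 were low. AQP3 was at 144.9, 207.4 and 122.3 CPM in goblet-like cells of control 1, control 2 and LPS and at 35.7, 29.5 and 21.4 CPM in the other HT29-like cells. No value overlaps, and the difference was 2.41 ± 0.25 (SE, edgeR adjusted p = 5.97e-09). The study lists AQP3 among genes of its goblet-like cells, made from these controls, so this direction is not independent evidence either. These 292 cells were 2.02% of all cells and held 8.87% of the AQP3 UMIs. AQP1 was at 22.5, 6.42 and 2.91 CPM against 85.1, 100.4 and 83.4, a difference of -3.10 ± 0.37 (SE, edgeR adjusted p = 9.96e-08) that was -4.35 without control replicate 1, and AQP5 was at 5.00, 2.14 and 0 CPM against 31.2, 11.5 and 13.2, a difference of -2.94 ± 0.77 (SE, edgeR adjusted p = 0.00862). The goblet-like AQP5 values rest on 2, 1 and 0 UMIs, and those of AQP1 on 9, 3 and 1. AQP10 and AQP11 did not pass (-0.33 ± 0.93 and -1.01 ± 0.70, SE). Of the 11184 genes tested 11.9% passed, against 3 of 5 members. HT29 markers made up 49.6% of the line marker UMIs in the goblet-like cluster, against 70.6% to 90.4% in the other HT29-like clusters. The goblet-like cluster thus held Caco-2 marker UMIs as well, and their part in these differences was not tested. With no doublets removed no HT29-like cluster was classed as goblet-like, so the comparison has no value there. The goblet-like cluster of that setting had 688 cells and 12.3% HT29 markers and was given to no line.

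**Figure D3:**
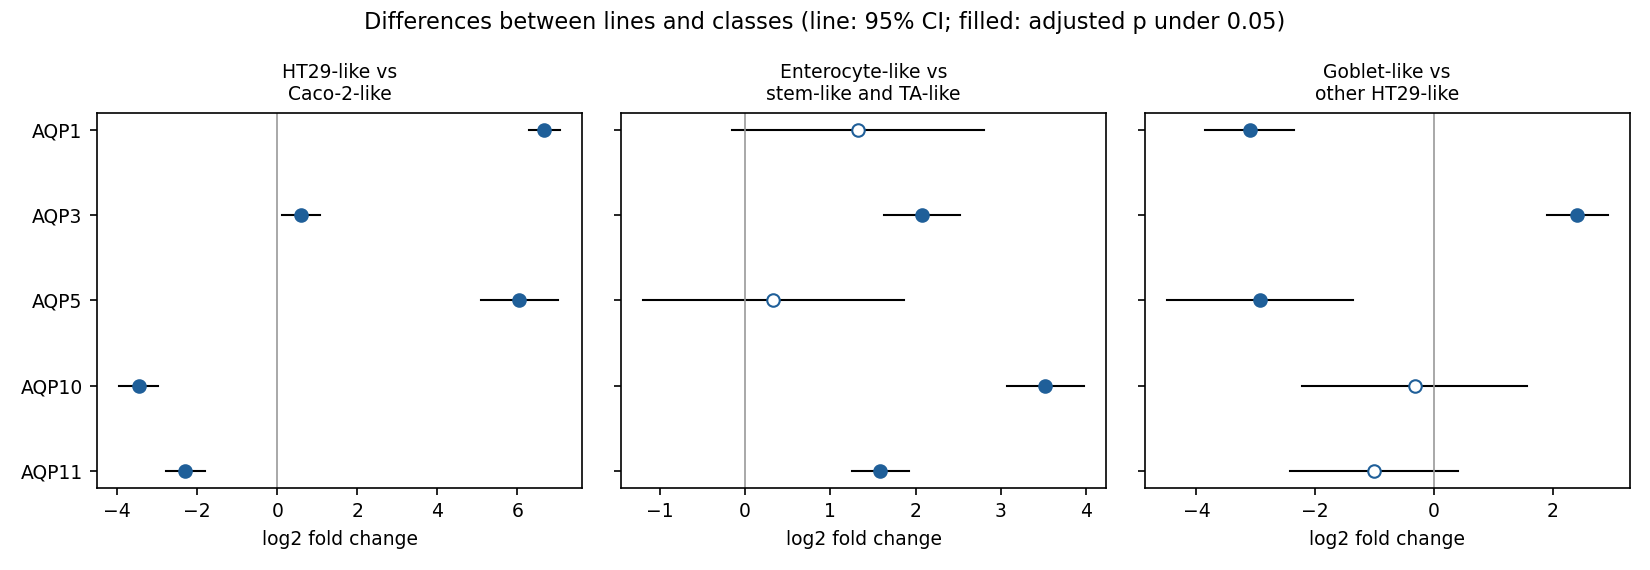
Log2 fold change of each aquaporin with its 95% interval in the 3 comparisons of lines and classes. Filled points have an adjusted p under 0.05, and the open AQP5 point of enterocyte-like cells rests on 1 UMI there. AQP1 and AQP5 lie to the right in the comparison of lines and to the left in goblet-like cells, while AQP3 is at 2.41 in goblet-like cells and at 0.60 between lines.

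The other HT29-like cells did not share 1 level. AQP1 was highest in the cluster led by PYGB and QSOX1, at 316.1, 290.1 and 275.9 CPM in control 1, control 2 and LPS, and this cluster of 305 cells held 29.1% of all AQP1 UMIs with 2.11% of the cells. In the cluster led by RARRES2 and SPRR1B it was at 95.9 ± 15.2 CPM (SD, n = 3), in that led by TM4SF4 and kallikrein genes at 80.9 ± 13.6, and in that led by LCN15 and NUPR1 at 43.6 ± 13.3. The top cluster lay above the rest in every library. AQP5 was highest in the cluster led by RARRES2 and SPRR1B, at 68.9, 38.0 and 43.4 CPM, which held 47.0% of its UMIs. AQP5 in the PYGB cluster was at 39.1, 14.4 and 14.2 CPM and in the kallikrein cluster at 29.5, 8.33 and 9.95 CPM, so control 1 was above the other libraries in each of these 3 clusters.

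**Figure D4:**
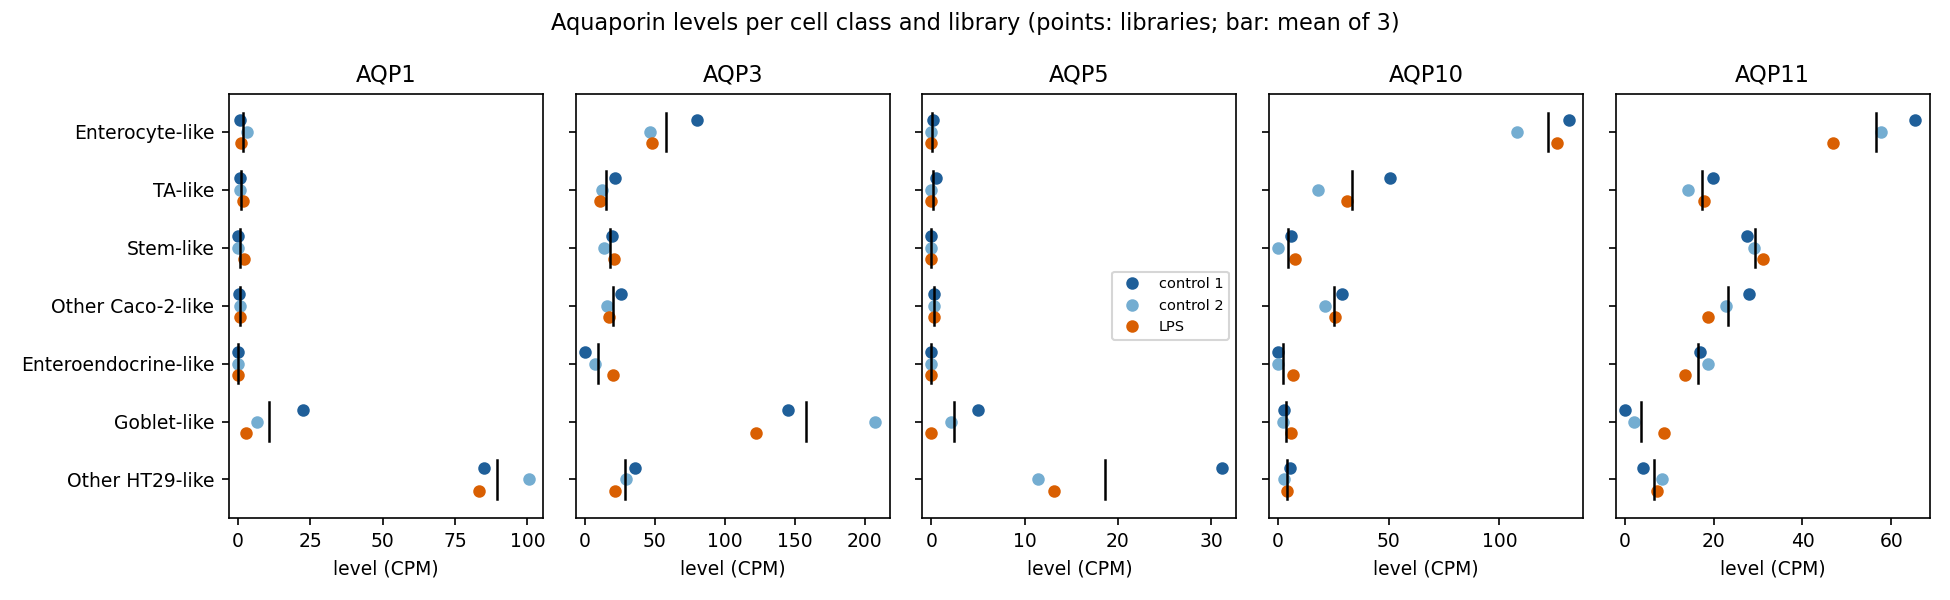
Level in CPM of each aquaporin (horizontal axes, starting at 0) in 7 groups of cells, with a point for each library and a bar at the mean of 3. AQP10 and AQP11 are highest in enterocyte-like cells, AQP3 in goblet-like cells, and AQP1 and AQP5 in the other HT29-like cells.

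Ordered by mean level over the 3 libraries, AQP1 was at 89.7 ± 9.4 CPM (SD) in other HT29-like cells, then at 10.6 ± 10.4 in goblet-like and 1.66 ± 1.19 in enterocyte-like cells, and the library ranges overlap between each neighbour from goblet-like cells down to the other Caco-2-like cells. AQP5 was at 18.6 ± 10.9 CPM in other HT29-like and 2.38 ± 2.51 in goblet-like cells, without overlap, and below 1 CPM in all further classes, whose ranges overlap. AQP3 was at 158.2 ± 44.1 CPM in goblet-like, 58.4 ± 18.9 in enterocyte-like and 28.9 ± 7.2 in other HT29-like cells, with no overlap among these. From other HT29-like cells down, through 19.9 ± 5.5 in other Caco-2-like to 9.32 ± 10.4 in enteroendocrine-like cells, neighbours overlap. AQP10 was at 121.7 ± 12.2 CPM in enterocyte-like cells, then at 33.2 ± 16.5 in TA-like and 25.3 ± 3.8 in other Caco-2-like cells, which overlap. AQP11 was at 56.6 ± 9.3 CPM in enterocyte-like and 29.3 ± 1.8 in stem-like cells, apart, followed by other Caco-2-like cells at 23.2 ± 4.6, which overlap with stem-like cells. In enteroendocrine-like cells AQP1 and AQP5 had 0 UMIs in every library, so none of the cells counted held a UMI. With 3 counts as the limit, the underlying rate of such cells with a UMI could be up to 3.41% to 8.11%, depending on the library. This sets no limit on cells that express the gene. A cluster of 310 cells given to no line is left out of this order. In it AQP1 was at 20.9 ± 8.6 CPM (SD, n = 3), AQP5 at 2.81 ± 0.33 and AQP10 at 38.9 ± 10.5, each between the first and second class named for that gene and overlapping with the second.

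Shares of cells with a UMI follow depth, so cells were also thinned to 2000 UMIs, leaving out 739 shallower cells (0 of control 1, 267 of control 2 and 472 of LPS). AQP1 was found in 25.2% ± 4.2 (SD, n = 3) of other HT29-like cells, and in 15.1% ± 1.2 after thinning. AQP10 was found in 40.7% ± 7.5 of enterocyte-like cells and in 22.7% ± 3.2 after thinning, AQP11 in 23.6% ± 6.4 and 10.7% ± 1.8 of them, and AQP3 in 33.7% ± 6.8 and 22.0% ± 9.7 of goblet-like cells. AQP5 was found in 7.37% ± 5.38 of other HT29-like cells and in 3.91% ± 3.204 after thinning.

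Over all kept cells, the pairs of members without AQP3 followed the lines. AQP1 and AQP5 were found together in 57 cells, against 7.79 cells from the product of their shares within libraries, and AQP10 with AQP11 in 407 against 234.4, and AQP3 with AQP10 in 413 against 244.0. AQP1 and AQP10 were found together in 29 cells, against 85.0. AQP3 was above the product with members of both lines, with AQP1 in 116 cells against 76.1 and with AQP5 in 43 against 23.7. Within the HT29-like cells AQP1 and AQP5 shared 55 cells, against 37.2, and AQP1 and AQP10 shared 13, against 8.77. Within enterocyte-like cells AQP10 and AQP11 shared 229, against 214.3, and AQP3 and AQP10 shared 233, against 216.4. Within all Caco-2-like cells AQP10 and AQP11 shared 379 cells, against 256.7, and AQP3 and AQP10 shared 389, against 222.4. Deeper cells have more UMIs of every gene, and these counts come without a test.

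The LPS library was set against the 2 controls, within each line. No aquaporin passed the test in either line. In Caco-2-like cells AQP11 was at 24.0 CPM with LPS, below 34.8 and 28.3 in the controls, with a difference of -0.49 ± 0.23 (SE, edgeR adjusted p = 0.998, 95% interval -0.9994 to 0.0106). AQP3 was at 22.3 CPM, between the controls at 36.1 and 20.6 (-0.46 ± 0.28, SE), and AQP10 at 41.6 CPM, between 49.5 and 33.9 (-0.11 ± 0.24, SE). In HT29-like cells AQP3 was at 30.6 CPM with LPS, below 45.8 and 48.8 in the controls, a difference of -0.68 ± 0.33 (SE, edgeR adjusted p = 1, 95% interval -1.39 to 0.03). AQP1 in HT29-like cells was at 76.1 CPM, below 79.3 and 90.2 (-0.21 ± 0.20, SE), AQP5 at 11.97 CPM, between 28.8 and 10.5 (-0.77 ± 0.49, SE), and AQP11 at 7.45, between 3.68 and 7.67 (0.34 ± 0.44, SE). The counts behind the rest were low, with differences of 0.34 ± 0.47 (SE) for AQP1 and -0.54 ± 1.32 for AQP5 in Caco-2-like cells and -0.03 ± 0.59 for AQP10 in HT29-like cells. No member passed the interaction test of the change between lines (edgeR adjusted p = 1 for each), in which AQP11 had the largest difference, 0.84 ± 0.50 (SE, 95% interval -0.25 to 1.93). The lone LPS library is assumed to vary as the controls do. Against 1 control at a time, with no test, the AQP10 difference in Caco-2-like cells was 0.23 without control 1 and -0.37 without control 2, that of AQP3 0.04 and -0.82, and the AQP5 difference in HT29-like cells 0.16 and -1.34.

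Across all genes 0 of 15007 passed in Caco-2-like cells (0%), 8 in HT29-like cells (0.0533%) and 0 for the difference between lines (0%), by edgeR. At an unadjusted p under 0.05 there were 415, 529 and 333 genes, and DESeq2 called 0, 5 and 0. The median log2 fold change over all genes in Caco-2-like cells was 0.00 and that of the 5 members -0.46, and in HT29-like cells 0.00 and -0.21. Each median of the 5 is the value of 1 member that did not pass. That member was AQP3 in Caco-2-like cells (-0.46 ± 0.28, SE) and AQP1 in HT29-like cells (-0.21 ± 0.20, SE). A shift of the members as a set was not tested.

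The other genes of the pathways were taken from lists. Unlike the aquaporins they were not kept out of the clustering, so their values between classes are a description. The aquaporins too were tested between clusters made from the same cells and named by rules chosen after clusters had been seen. Leaving the aquaporin genes out of the clustering does not remove this. Of the 20 salt and water transport genes tested between lines, 11 were higher and 6 lower in HT29-like cells, with KCNQ1 (4.21) and SLC12A2 (3.63) the largest and SLC26A3 (-3.77) and KCNE3 (-2.20) the smallest log2 fold changes. SLC26A3 exchanges chloride for bicarbonate, SLC12A2 brings chloride in, and KCNQ1 with KCNE3 forms a potassium channel. In enterocyte-like cells 9 of 17 were higher and 2 lower, with SLC26A3 at 4.50 and SLC5A1, the sodium glucose carrier, at 2.99, and SLC12A2 at -2.72 and SCNN1A at -1.68. In goblet-like cells 2 were higher and 3 lower of 17, with SLC12A2 at 0.82 and SCNN1A at 0.73, and SGK1 at -2.15 and CFTR at -1.34.

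Of the glycerol genes, which turn glycerol and its fats over, 5 of 19 tested were higher and 8 lower in HT29-like cells, with MGLL (3.02) and LIPE (1.49) and GK (-3.09), the glycerol kinase, and PLIN2 (-2.22) at the ends. In enterocyte-like cells 13 of 16 were higher and none lower, from GPD1 (3.04) and GK (2.36) to PLIN2 (0.61) and LPIN2 (0.76). In goblet-like cells 1 of 16 was higher, MGLL (1.10), and 2 were lower, DGAT2 (-1.23) and LPIN2 (-0.70). Of the trafficking genes, whose products move or anchor membrane channels, 5 of 11 were higher and 4 lower in HT29-like cells, with MSN (6.78) and PRKACB (3.17) and AKAP7 (-1.55) and RDX (-1.48) at the ends. In enterocyte-like cells 8 of 11 were higher and 1 lower, with MSN (1.86), AKAP7 (1.13), RDX (0.31) and PRKACB (-3.48), and in goblet-like cells 1 was higher, PRKACB (1.44), and 2 lower, EZR (-0.89) and MSN (-0.70). The sizes for PRKACB and MSN in enterocyte-like cells are uncertain, with SEs of 1.45 and 0.61, and PRKACB passed narrowly (edgeR adjusted p = 0.0473). Of the 13 hypoxia genes, 11 were higher and 1 lower in HT29-like cells, with NDUFA4L2 (6.82), CA9 (5.27), ADM (0.55) and BNIP3 (-3.73) named, 10 were higher in enterocyte-like cells, from NDRG1 (2.43) and ANKRD37 (2.03) to SLC2A1 (0.74) and ADM (0.41), and none was higher and 4 were lower in goblet-like cells, PYGB (-2.59), NDRG1 (-0.74), SLC2A1 (-0.70) and LDHA (-0.63). The other 9 hypoxia genes did not pass in goblet-like cells, and a link of AQP3 to hypoxia was not tested. Of all genes tested, 33.8% were higher and 35.9% lower in HT29-like cells, 26.1% and 20.7% in enterocyte-like cells, and 5.38% and 6.55% in goblet-like cells. Of the other 9 members of the family only AQP7 was tested between lines, and it was lower in HT29-like cells (-1.08 ± 0.28, SE, edgeR adjusted p = 0.003). With LPS none of these listed genes passed in either line.

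The genes most like each member were sought over 58 sums of UMIs per cluster and library, by Pearson's r of log2(CPM + 1) among 13172 genes. These sums share libraries and clusters, so r is a description. PRB1 (0.95), KRT80 (0.94), B3GALT4 (0.94) and TCN1 (0.94) were among the nearest to AQP1, and MUC21 (0.93), SPRR3 (0.92), CLEC3A (0.92) and KRT16 (0.92) to AQP5. For AQP10 they were MS4A10 (0.93), TMEM92 (0.92), LGI4 (0.92), SLC2A5 (0.90) and CHP2 (0.90), and for AQP11 AMN (0.90), IL32 (0.89), HSD17B11 (0.88), CISD1 (0.88) and A1CF (0.88). AQP3 had no such close match, with ALDOC (0.71), VIPR1 (0.71), OAS1 (0.68), PHGR1 (0.67) and SDCBP2 (0.67). Between members r was 0.88 for AQP1 and AQP5, 0.60 for AQP10 and AQP11, 0.40 for AQP3 and AQP10, and -0.72 for AQP5 and AQP11.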

How the data were processed

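Single-cell RNA of 3 co-cultures was analysed from the UMI counts deposited by the authors, which were made with Cell Ranger (3.1.0 in the matrix header) on GRCh38 with no normalization. Cells of control 1 needed 2250 UMIs from 770 genes, as in the study's methods, those of control 2 needed 1500 from 700, which LPS cells also had to reach, and mitochondrial UMIs were limited to 20%. Doublets were scored with Scrublet in scanpy 1.11.5. Its threshold marked 0, 0 and 1 cells, so the 6% with the highest score were removed. SCTransform (0.4.2) and anchor integration in Seurat 5.3.0, without the aquaporins, gave 50 components, and Leiden clustering used a resolution of 0.5, with 0.35 for enterocyte-like and 0.4 for HT29-like cells. A cluster took a line from the difference of the mean log2 folds of both marker lists (1.5 or more). Its class was that with the highest mean marker fold (0.5 or more, at least 3 raised markers and most of the list raised). A marker of that class also had to be among the 10 genes most raised, with no other class having more there. These rules were chosen after clusters had been seen. The clusters led by ANKRD1 (3198 cells) and by ALB (562 cells) had mean TA-like folds of 0.95 and 0.64 on the log2 scale. They had no TA-like marker among those 10 genes, so they were left unnamed and out of the TA-like class.

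UMIs were summed per group and library and tested with edgeR 4.0.16 (quasi-likelihood, TMM, filterByExpr, Benjamini-Hochberg threshold 0.05), with DESeq2 1.42.0 as an alternative. The tests were also run on simulated counts. There the sums were drawn independently, with no shared cultures and no clustering of the same cells. That run therefore does not bear on these limits of the p-values. Sums of a library are paired by the culture they came from. Fits were also run with the library as a block, other scaling, filters, clustering, doublets, minimums and lines set per cell, and without each library. All 5 members, plus the genes with the 2 largest and 2 smallest changes past the threshold in each list, are named. The members and lists were chosen with earlier results of these data known. Intervals of levels are 95% exact Poisson and cover counting error only, those of log2 differences come from the edgeR fit, and 3 counts were taken as the limit that a count of 0 allows. The LPS library was not replicated. The spread behind a p-value came from sums per group and library, which share 3 cultures and are not independent. The class comparisons shared the same fit. In the comparisons of lines and classes the LPS library counted as a replicate, and in the LPS fits only the 2 controls were replicates. RefSeq promoter windows matched 4 of 5 members. Some genes that lead a cluster or resemble a member are not reported here.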

Additional observations from a re-analysis of the deposited data

How the results depend on the processing

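Under the alternatives 415 values kept their direction and call or stayed within their spread, 22 moved by more, 12 changed sign in fits with a test, 3 gained a call and 4 lost one. For the comparison of HT29-like with Caco-2-like cells, the AQP3 difference of 0.60 lost its call with no doublets removed (0.024), with lines set per cell (0.50) and without goblet-like cells (0.081, chosen after seeing the data), and ranged from 0.32 to 0.85 without each library in turn, losing its call without control replicate 2. For enterocyte-like cells the AQP1 difference of 1.33 passed with no doublets removed (1.33, adjusted p = 0.0363, edgeR) and with the minimums of control 2 in every library (2.64), and ranged from 0.39 to 3.28 without each library, and passed without the LPS library. The AQP5 difference there turned negative with DESeq2 (-0.62), log normalization without integration (-0.072), no doublets removed (-0.19) and the minimums of control 2 (-0.84), on 1 UMI in enterocyte-like cells. The AQP10 difference in goblet-like cells ranged from -0.89 to 0.0056 without each library. The number of genes called in goblet-like cells ranged from 786 to 1036 without each library, against 1334, the lowest without control replicate 2. With no filter on low counts 15 genes passed for LPS in Caco-2-like cells, 33 in HT29-like cells and 7 for the difference, none of them an aquaporin, and with lines set per cell 2 in Caco-2-like and 5 in HT29-like cells. For HT29-like cells DESeq2 called 5 and the fit with no doublets removed 2, against 8.

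For LPS, uncalled differences changed sign for AQP5 in Caco-2-like cells with log normalization (0.30), for AQP10 in HT29-like cells at a resolution of 0.8 (0.093) and the minimums of control 2 (0.072), for AQP11 in HT29-like cells with no doublets removed (-0.18), and for the AQP10 difference between lines with log normalization (-0.063), no doublets removed (-0.14) and lines set per cell (-7.63, with 0 UMIs in the HT29-like LPS sum). Against 1 control at a time, with no test, signs changed without control replicate 1 for AQP10 (0.23), AQP3 (0.042) and AQP1 (-0.064) in Caco-2-like cells, for AQP5 (0.16), AQP10 (0.48) and AQP11 (-0.073) in HT29-like cells and for the AQP5 difference between lines (0.45), and without control replicate 2 for the differences between lines of AQP10 (-0.050) and AQP3 (0.16). The cause was not tested. Without a control the LPS fits have no residual degrees of freedom and give values without a test. With the library as replicate block the differences between lines were 6.68 for AQP1, 0.62 for AQP3, 6.11 for AQP5, -3.46 for AQP10 and -2.29 for AQP11, and no call of a member changed in any comparison. The goblet-like comparison has no value with no doublets removed, where no HT29-like goblet-like cluster formed. After thinning to 2000 UMIs the shares with a UMI fell to 15.1% for AQP1 in other HT29-like cells, 22.0% for AQP3 in goblet-like cells, 22.7% for AQP10 and 10.7% for AQP11 in enterocyte-like cells. Levels of the members over all deposited barcodes moved by less than their counting interval from those over kept cells. AQP1 and AQP5 had low counts outside HT29-like cells, with 44 and 14 UMIs in all 11306 Caco-2-like cells. The part of depth in these low counts was not tested.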

Other observations

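A cluster of 310 cells led by PAGE4 and C1orf56 had a marker score between those of the lines and was given neither. In it AQP1 was at 13.7, 18.5 and 30.4 CPM in control 1, control 2 and LPS, AQP10 at 49.6, 28.5 and 38.6 CPM, AQP3 at 36.9, 29.4 and 13.8 CPM and AQP11 at 22.2, 26.9 and 33.1 CPM, so that HT29-like and Caco-2-like aquaporins were found in the same cluster. Its cells had a median of 12510, 5360 and 8140 UMIs, above the median of all kept cells in each library. In the 73 fetal or placental-like cells AQP1, AQP5 and AQP10 had 0 UMIs, AQP3 had 0, 5 and 1 and AQP11 had 1, 4 and 0.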
